A study of Mus musculus with 2 samples.

Results

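Cytochrome P450 genes encode heme enzymes that add oxygen to small molecules, and their methylation was described in the epiblast of the mouse embryo. Members were the autosomal protein-coding RefSeq genes whose symbol is Cyp followed by digits, a letter and digits, together with Cyp51, which gave 93 of 20665 autosomal protein-coding genes. Developmental and sterol members (Cyp26, Cyp51, Cyp27 and Cyp7) numbered 8, the clustered families Cyp2, Cyp3 and Cyp4 held 71 (47, 7 and 17 genes), and 14 belonged to other families. Whole-genome bisulfite sequencing was done on hand-dissected epiblast of wild-type C57Bl6/J female (XX) embryos at embryonic day 6.5, from natural matings and without culture. Bisulfite converts unmethylated cytosine and leaves methylated cytosine, so each read reports a CpG as methylated or not. The labels give 2 samples in this single group, with no treatment and no control, and the counts came as 1 table without a column per sample. The number of embryos behind each sample is not stated. No expression was measured, so the labelled tissue was not checked against expressed markers.

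Most P450 enzymes sit in the endoplasmic reticulum or in mitochondria and receive electrons from partner proteins. Cyp26 enzymes degrade retinoic acid, the vitamin A derivative that patterns the embryo, and Cyp51 removes a methyl group from lanosterol on the way to cholesterol. Cyp27 and Cyp7 enzymes act on sterols and vitamin D, and the Cyp2, Cyp3 and Cyp4 families, many of whose genes lie in tandem arrays, metabolize drugs, steroids and fatty acids, chiefly in liver and kidney. In mammalian genomes promoters rich in CpGs are usually unmethylated, while most other CpGs are methylated in the fetus and adult.

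Across the autosomes, 89.9% of 20383623 CpGs had at least 1 read, with 6.54 reads per CpG and 66.3% of read counts methylated. A level is the methylated share of the read counts of a region, with both strands of a CpG added. Ranges in parentheses are 95% intervals by the exact Clopper-Pearson method. These reflect counting error alone: reads over neighboring CpGs add a count to every one of them, and no molecular identifiers were present. With 1 pooled table there is no replicate error for any value, and no p-value was computed. Differences between genes are therefore described with their intervals and beside all autosomal protein-coding genes. Arrayed P450 genes have near-identical copies (Cyp2a4 and Cyp2a5, and members of Cyp2c, Cyp2d, Cyp3a and Cyp4a), so reads there could have been assigned to the wrong copy. Their values are uncertain for this reason.

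The promoters below are single examples and were not chosen to be typical of their groups. They run from the CpG-dense starts of Cyp26a1, Cyp51 and Cyp2r1 to the starts of Cyp1a1, Cyp2d9 and Cyp3a11, which have few CpGs. Each runs from 250 bases before to 50 bases after the annotated start, 5′ to 3′ on the strand of the gene, from RefSeq (GRCm38.p6), and capitals mark the CpGs. Cyp26a1 lies at chr19:37697558-37697857 on the plus strand and Cyp51 at chr5:4104648-4104947 on the minus strand. Cyp2r1, a hydroxylase of vitamin D, lies at chr7:114562923-114563222 on the minus strand. Cyp1a1, which metabolizes aromatic hydrocarbons, lies at chr9:57697363-57697662 on the plus strand. Cyp2d9, of the Cyp2d array, lies at chr15:82452127-82452426 on the plus strand. Cyp3a11, of the Cyp3a array, lies at chr5:145879805-145880104 on the minus strand.
Cyp26a1: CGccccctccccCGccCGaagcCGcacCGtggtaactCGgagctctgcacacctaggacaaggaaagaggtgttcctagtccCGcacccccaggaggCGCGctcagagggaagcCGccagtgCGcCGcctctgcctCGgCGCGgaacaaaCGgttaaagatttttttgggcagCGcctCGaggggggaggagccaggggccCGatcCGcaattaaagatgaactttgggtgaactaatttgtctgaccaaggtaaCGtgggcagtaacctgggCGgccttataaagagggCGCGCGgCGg
Cyp51: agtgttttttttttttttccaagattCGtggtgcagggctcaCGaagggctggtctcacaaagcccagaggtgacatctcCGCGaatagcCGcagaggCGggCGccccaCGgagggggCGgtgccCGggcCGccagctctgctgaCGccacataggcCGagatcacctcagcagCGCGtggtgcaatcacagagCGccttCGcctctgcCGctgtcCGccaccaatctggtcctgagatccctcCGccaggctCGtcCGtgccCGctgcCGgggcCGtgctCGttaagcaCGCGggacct
Cyp2r1: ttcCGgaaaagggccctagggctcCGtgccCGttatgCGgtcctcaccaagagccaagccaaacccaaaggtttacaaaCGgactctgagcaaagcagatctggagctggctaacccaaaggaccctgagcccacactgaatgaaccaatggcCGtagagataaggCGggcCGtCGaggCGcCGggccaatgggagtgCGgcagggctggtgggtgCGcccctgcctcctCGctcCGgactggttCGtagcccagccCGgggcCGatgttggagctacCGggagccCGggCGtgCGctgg
Cyp1a1: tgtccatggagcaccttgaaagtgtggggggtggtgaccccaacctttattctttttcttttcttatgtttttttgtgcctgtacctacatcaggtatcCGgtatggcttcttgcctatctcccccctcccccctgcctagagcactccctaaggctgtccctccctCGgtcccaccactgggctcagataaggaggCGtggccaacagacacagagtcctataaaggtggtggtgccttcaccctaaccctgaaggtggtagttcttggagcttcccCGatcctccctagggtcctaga
Cyp2d9: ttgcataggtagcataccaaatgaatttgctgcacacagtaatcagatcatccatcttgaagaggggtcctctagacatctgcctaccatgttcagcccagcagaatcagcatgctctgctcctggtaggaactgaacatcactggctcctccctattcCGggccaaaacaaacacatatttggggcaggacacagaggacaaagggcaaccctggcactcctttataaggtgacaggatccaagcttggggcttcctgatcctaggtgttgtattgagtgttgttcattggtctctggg
Cyp3a11: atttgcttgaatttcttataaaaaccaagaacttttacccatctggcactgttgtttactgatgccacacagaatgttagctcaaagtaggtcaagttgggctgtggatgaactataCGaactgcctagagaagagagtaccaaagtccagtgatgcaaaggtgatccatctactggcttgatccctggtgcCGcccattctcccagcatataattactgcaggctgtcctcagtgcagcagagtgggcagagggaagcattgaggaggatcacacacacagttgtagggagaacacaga

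The printed Cyp26a1 promoter held 26 CpGs with 33 of 283 read counts methylated, 11.7% (8.16% to 15.98%). That of Cyp51 held 28 CpGs with 3 of 377 methylated, 0.796% (0.164% to 2.31%). Cyp2r1 had 22 CpGs at 10.6% (7.44% to 14.6%). These starts were CpG-dense and most of their read counts were unmethylated. Cyp1a1 had 4 CpGs in its promoter, with 5 of 42 read counts methylated, 11.9% (3.98% to 25.6%). Cyp3a11 had 2 CpGs with 12 of 22 methylated, and Cyp2d9 had 1 CpG with 10 of 14 methylated. Few CpGs thus went with a mostly methylated start in Cyp2d9, whereas the 4 CpGs of Cyp1a1 were mostly unmethylated. Of the members, 73 had a start in the promoter table. The median promoter held 9.5 CpGs in developmental and sterol members (6 genes), 6.5 in other families (8 genes) and 2 in clustered families (59 genes), beside 7 over 31396 autosomal promoters. Numbers ran from 2 to 28, from 3 to 31 and from 0 to 22 in the same order, so Cyp51 and Cyp2r1 were at the top of their groups.

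Searched on both strands, the GC box GGGCGG had 2 matches in the Cyp26a1 promoter and 1 each in Cyp51 and Cyp3a11, and was present in 35.7% of 32851 RefSeq promoters. The TATA box sequence TATAAA had 1 match each in Cyp26a1, Cyp1a1, Cyp2d9 and Cyp3a11, beside 13.6% of all promoters. The match in Cyp26a1 lay after the annotated start, and that in Cyp3a11 lay near the upstream edge of the printed sequence. In Cyp2d9 it was on the opposite strand. GCGTG, the core bound by the aryl hydrocarbon receptor, had 2 matches in Cyp51 and 1 each in Cyp1a1 and Cyp2r1, beside 32.4%. Matches to GGGCGG and GCGTG can share no more than a terminal G. AGGTCA, a half-site of nuclear receptors, had 1 match in Cyp3a11, beside 16.3%. The spaced repeat TGAACTNNNNNTGAACT, looked for after the sequence had been seen, had 1 match in Cyp26a1 and occurred in 8 of 32851 promoters (0.0244%). A match is a description of letters and not of a bound factor.

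At the end of the gene with more CpGs, developmental and sterol members were less methylated than the clustered families and closer to the level of all autosomal genes. An end was the 1 kb window reaching 500 bp to either side of an annotated end, measured where at least 5 CpGs had a read and at least 20 read counts were present. The median level was 20.7% in developmental and sterol members (8 of 8 measured), 68.7% in other families (13 of 14) and 72.2% in clustered families (50 of 71), beside 9.70% in 18758 autosomal genes. Developmental and sterol minus clustered was -51.5 points. Windows were called low if the whole interval fell below 20% and high if all of it exceeded 60%. An interval within those bounds was called intermediate, and the rest were unresolved. Low windows numbered 4 of 8 in developmental and sterol members, 5 of 13 in other families and 8 of 50 in clustered families, beside 59.6% of all autosomal genes. High windows numbered 2 of 8, 6 of 13 and 24 of 50 in the same order, beside 19.0%.

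Between developmental and sterol members and clustered families, the number of CpGs ran opposite to the levels, but other families did not follow this order. The end with more CpGs held a median of 22 CpGs in developmental and sterol members and 8 in clustered families, beside 40 over all genes. Other families held a median of 23 CpGs at that end, with a median level of 68.7%. Of the 10 members with at least 40 CpGs in that window, 10 were called low, between 1.66% and 14.7%, with a median of 7.60% beside 5.50% for all CpG-rich genes. The share of low calls among all genes with that many CpGs was 96.8%, so these members were near the background. With fewer than 20 CpGs, 3 developmental and sterol members lay between 29.2% and 79.5%, and 36 clustered members had a median of 76.6%, beside 73.7% for all CpG-poor genes. At the opposite, CpG-poorer end the medians were 68.3% in developmental and sterol members (7 genes) and 71.8% in clustered families (30 genes), a difference of -3.52 points. The group difference was therefore present at the CpG-richer end and small at the other end.

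**Figure D1:**
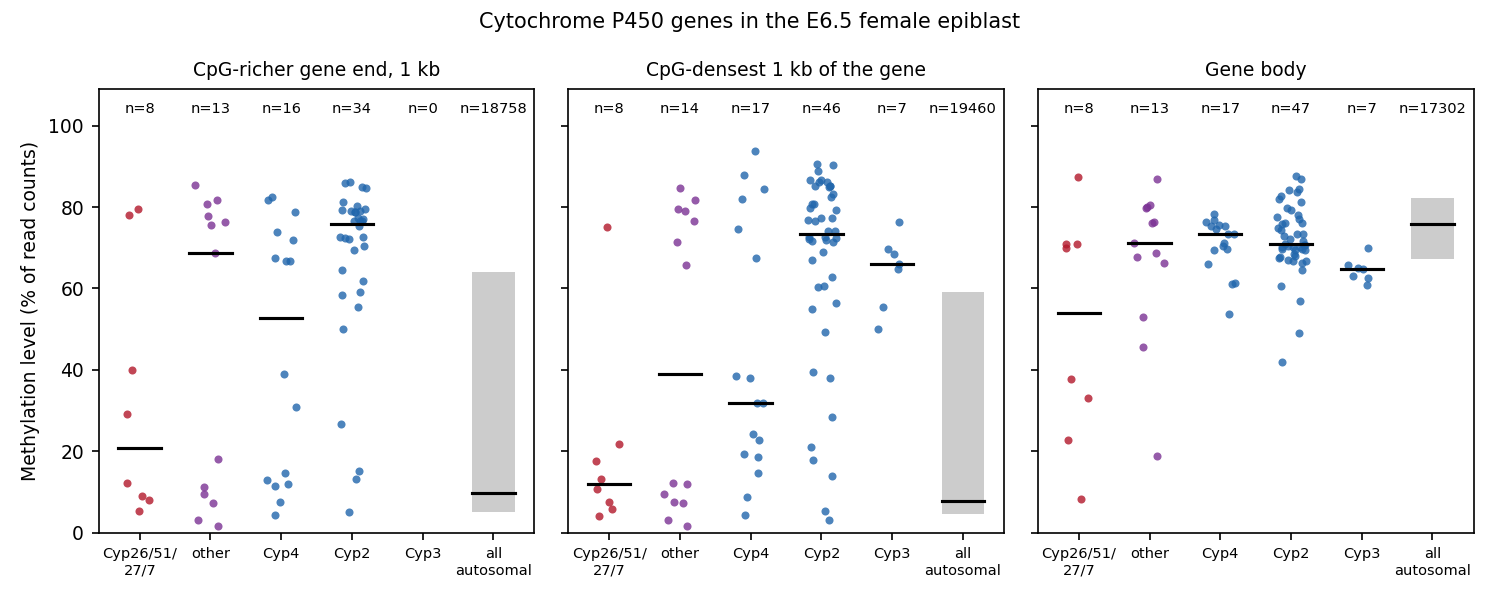
Methylation level (percent of read counts) of each measured P450 gene at its CpG-richer end, in its CpG-densest 1 kb and in its body, by family, with black lines at medians. Grey bars run from the lower to the upper quartile of all autosomal protein-coding genes. Developmental and sterol members had medians of 20.7%, 11.98% and 53.9% in the 3 panels, and no Cyp3 gene had a measured end.

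Around annotated starts, pooled read counts of the 6 developmental and sterol members with a start were 18.3% methylated in the first 250 bp of the gene. The 8 other members were at 11.6% and the 59 clustered members at 35.4%, beside 7.82% in 16457 autosomal genes. In clustered members the dip was shallow and narrow, and by 2.0 to 2.25 kb inside the gene, the bin centered at 2125 bp, they were at 76.4%. Developmental and sterol members were at 35.1% in that bin and all autosomal genes at 59.3%. Pooled counts weight genes by their CpGs, and the clustered value thus rests on the few CpG-rich starts among them. Counted per gene, the start window had a median of 27.8% in developmental and sterol members (6 genes) and 71.8% in clustered families (39 genes), beside 7.86% in 14533 genes. The difference was -44.0 points, and -28.4 points in windows of 250 bp on either side, in which 19 clustered members were measured. In CpG-poor windows alone it was -20.0 points. Start windows were low in 3 of 6 and 3 of 39 of these members, beside 66.3% of all genes.

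**Figure D2:**
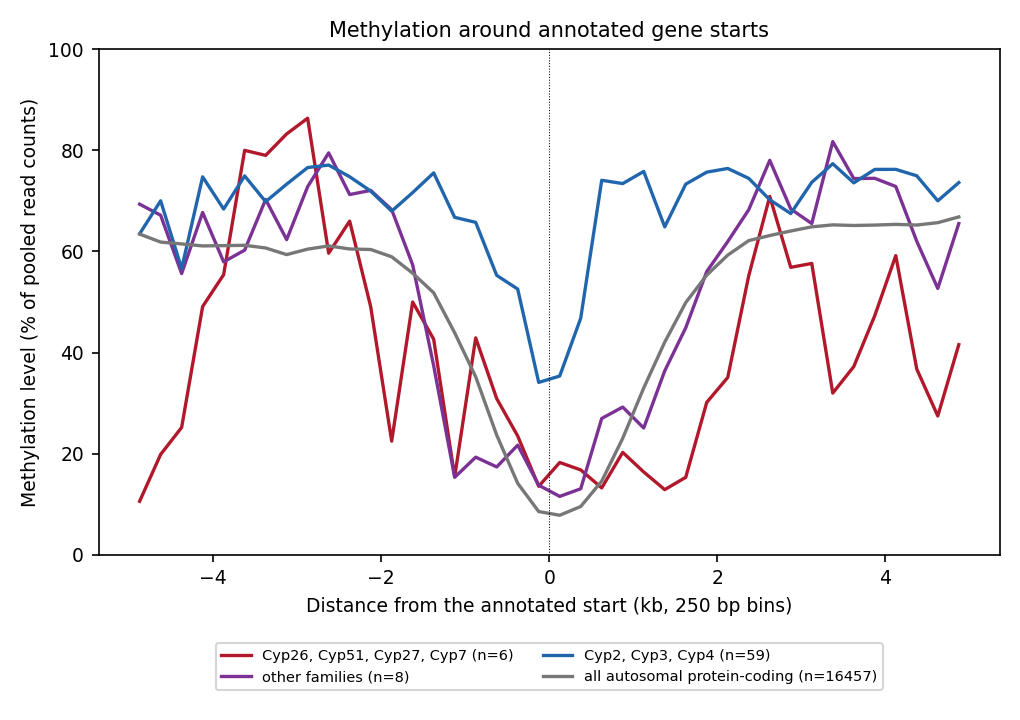
Methylation level (percent of pooled read counts, 250 bp bins) against distance from the annotated start, in the direction of transcription, for members with a start and for all autosomal protein-coding genes. In the last 250 bp before the start, developmental and sterol members were at 13.6% and clustered families at 34.1%, beside 8.56% over all genes.

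Among the Cyp26 genes, which encode the enzymes that clear retinoic acid, Cyp26a1 and Cyp26b1 carried low-methylated stretches of at least 2000 bp, at the annotated start in Cyp26a1 and inside the gene in Cyp26b1. Those of Cyp26c1 were shorter. Stretches were built from 500 bp windows under 20% with at least 10 read counts, merged where they overlapped. Around the start of Cyp26a1 such a stretch ran for 4400 bp at chr19:37695501-37699900, with 237 CpGs at 8.19% (7.22% to 9.25%). Its start window was at 8.22% (72 CpGs, 827 read counts), and its body, which leaves out 1000 bp at each end, was at 8.30% (6.60% to 10.3%), the lowest body of any P450 gene. Its 3′ end was at 44.0% (33.2% to 55.3%). Methylation of Cyp26a1 was thus low over most of this short gene and intermediate at its far end.

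Cyp26b1, on chromosome 6, runs 22.4 kb from its start. It was methylated at both annotated ends and had a wide low stretch over part of its inside. Its start window was at 67.8% (59.6% to 75.3%) and its 3′ end at 78.1% (70.7% to 84.3%). Between them a stretch of 8100 bp, at chr6:84582801-84590900, held 418 CpGs and 4087 read counts at 7.37% (6.58% to 8.21%). It began 2910 bp inside the gene, and its densest 1 kb, with 85 CpGs, was at 4.01% (2.61% to 5.86%). Among all autosomal genes 1.49% had a low stretch of at least 5000 bp in or within 1000 bp of the gene, and Cyp26b1 was 1 of 93 P450 genes. Low stretches of at least 2000 bp were present in 5 members, Cyp26a1, Cyp26b1, Cyp24a1, Cyp46a1 and Cyp1a1, beside 31.4% of all genes. The body of Cyp26b1 was accordingly intermediate, at 22.7% (21.6% to 23.8%).

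Cyp26c1 lies upstream of Cyp26a1 on chromosome 19 in the same direction, and its pattern was broken into several pieces. Its start window was at 43.2% (37.1% to 49.5%) and its 3′ end at 8.01% (6.42% to 9.84%, 65 CpGs). Its low stretches measured 800, 900 and 1600 bp, the last one at its 3′ end. Its densest 1 kb, 66 CpGs near the start, was at 21.8% (19.2% to 24.6%), above the upper quartile of 8.32% for all genes with 60 to 79 CpGs in that window. The 4417 bp between Cyp26c1 and Cyp26a1 were at 18.7% (16.8% to 20.7%) over 142 CpGs. In 500 bp tiles of that interval, the level reached 65.5% (45.7% to 82.1%) in a tile centered 3.06 kb before the Cyp26a1 start, on only 29 read counts, so the low DNA of the pair was not continuous.

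**Figure D3:**
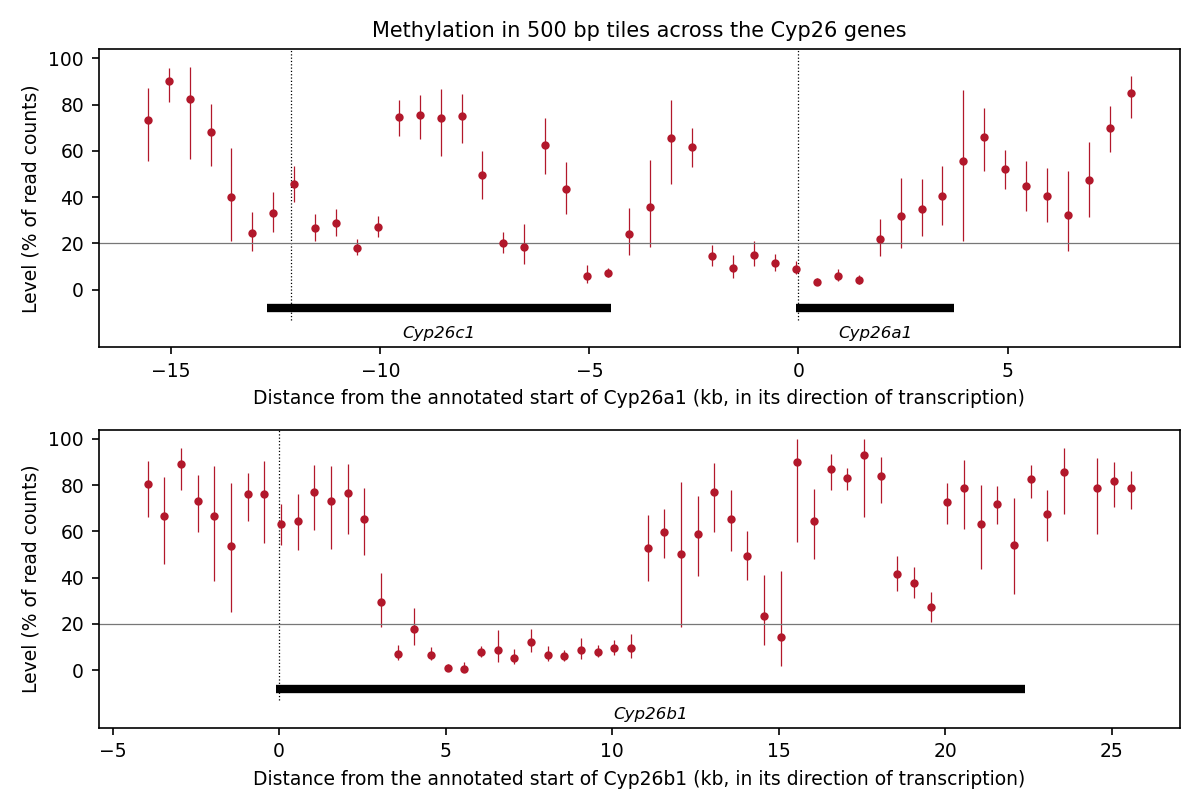
Methylation level (percent of read counts, 500 bp tiles with exact 95% intervals) against distance from the annotated start of Cyp26a1 (top) and Cyp26b1 (bottom), with black bars for genes, dotted lines at annotated starts and a grey line at 20%. Low tiles lay around the start of Cyp26a1 and at the 3′ end of Cyp26c1, and inside Cyp26b1 rather than at its start.

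Among sterol and vitamin D genes, Cyp51 had the simplest pattern. Its start window was at 5.30% (3.91% to 7.01%, 71 CpGs), its 3′ end at 79.5% (63.5% to 90.7%) and its body at 87.3%, the highest body of the developmental and sterol group. Cyp27a1, a mitochondrial sterol hydroxylase of bile acid synthesis, was alike in order, with 15.6% at its start (12.5% to 18.99%), 77.6% at its 3′ end and 70.8% in its body. Cyp27b1, which makes the active form of vitamin D, was at 40% at its start (33.5% to 46.8%). A low stretch of 1900 bp began 155 bp inside Cyp27b1, at 13.99% over 74 CpGs. Its body was at 37.7% (34.8% to 40.7%).

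The 2 Cyp7 genes, which hydroxylate cholesterol and oxysterols for bile acid synthesis, differed from each other. Cyp7a1, the rate-limiting enzyme of the classical bile acid pathway, was at 79.5% (64.7% to 90.2%) and 75.8% (57.7% to 88.9%) at its ends, with 7 and 6 CpGs, and at 75% in its densest 1 kb. Cyp7b1 was at 29.2% (20.8% to 38.9%) at its CpG-richer end and at 10.7% (8.13% to 13.9%) in its densest 1 kb of 44 CpGs, which overlapped that end. Both bodies were near 70%, at 70.9% in Cyp7a1 and 70.1% in Cyp7b1. No start was used for either gene.

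Members of other families had either low or high levels at their CpG-richer ends. Cyp20a1, whose substrate is not established, had the lowest end of any member, at 1.66% (0.970% to 2.65%), against 93.8% at its 3′ end and 86.9% in its body. Cyp46a1, the cholesterol hydroxylase of neurons, was at 3.17% (2.18% to 4.45%) with 100 CpGs, the most of any member. Cyp39a1, an oxysterol hydroxylase, was at 7.20%, and Cyp24a1, which inactivates vitamin D, at 11.3%. Cyp11a1, which cleaves the cholesterol side chain to begin steroid synthesis, was at 9.61% (6.43% to 13.7%) with 32 CpGs. In contrast, the CpG-richer ends of the later steroid genes were methylated, with 76.4% at Cyp17a1, 80.8% at Cyp11b1, 75.7% at Cyp11b2, 77.8% at Cyp21a1 and 68.7% at the aromatase gene Cyp19a1. Of these 5, only Cyp11b2 had an interval too wide for a high call. The CpG-richer end of Cyp11a1 was its start. No strand was used for Cyp11b1, Cyp11b2 and Cyp21a1, so their CpG-richer ends could be 3′ ends. Cyp8b1, the hydroxylase that directs bile acid synthesis to cholic acid, was at 85.4% (79.6% to 90.1%), the highest CpG-richer end of the other families.

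The Cyp1 genes, which metabolize aromatic hydrocarbons and are induced through the aryl hydrocarbon receptor, differed among themselves. The start window of Cyp1a1 was at 14.1% (8.55% to 21.3%) with only 10 CpGs, and it lay in a low stretch of 2300 bp at 9.09%. The annotated span of Cyp1a1 begins further upstream, and its outermost ends had 4 and 2 CpGs and were not measured. Cyp1b1 was at 18.0% (13.9% to 22.8%) at its start and at 18.8% (16.9% to 20.8%) in its body, the lowest body of the other families. Cyp1a2, beside Cyp1a1 on chromosome 9, was at 72.3% (62.1% to 81.1%) at its start and 81.8% at its 3′ end. Its densest 1 kb, with 36 CpGs, was at 65.7%.

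A low call at one end and a high call at the opposite end, the usual pattern of a gene with a CpG-rich start, was found in 9 of 47 members with both ends measured, beside 47.3% of 15252 autosomal genes. These were Cyp27a1 and Cyp51 among developmental and sterol members, Cyp20a1, Cyp46a1, Cyp39a1, Cyp24a1 and Cyp11a1 among other families, and Cyp4x1 and Cyp4v3 among clustered families. At Cyp4v3, a fatty acid hydroxylase outside the arrays, the levels were 14.7% and 82.6%.

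Among clustered families, the 8 low ends comprised 3 windows with at least 40 CpGs (Cyp2s1, Cyp2r1 and Cyp4v3) and 5 with fewer (Cyp4f13, Cyp4f15, Cyp4f17, Cyp4f18 and Cyp4x1). Cyp2s1, at the edge of the Cyp2 array on chromosome 7, was at 5.22% (3.64% to 7.21%, 44 CpGs), the lowest end of the Cyp2 family. Cyp2r1 followed at 13.3% (11.03% to 15.8%, 63 CpGs). The highest ends of Cyp2 were those of Cyp2d26 at 86.2% and Cyp2j5, of a family of arachidonic acid epoxygenases, at 85.96%. Cyp2u1, a fatty acid hydroxylase, was at 79.0% (72.2% to 84.8%) at the end with more CpGs but at 3.02% (2.06% to 4.25%) in its densest 1 kb of 75 CpGs inside the gene. Among Cyp2j genes, the starts of Cyp2j9, Cyp2j6 and Cyp2j13 were at 20.8%, 26.02% and 26.8% with 16 to 20 CpGs each, while that of Cyp2j5 was at 89.8% with 5 CpGs. In Cyp4, the lowest ends were Cyp4f17 at 4.29% and Cyp4f15 at 7.51%, and the highest were Cyp4b1 at 82.4% and Cyp4a10 at 81.8%.

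Neither outermost annotated end could be measured in 20 members, 19 of them clustered. These were the 7 Cyp3 genes (Cyp3a11, Cyp3a13, Cyp3a16, Cyp3a25, Cyp3a44, Cyp3a57 and Cyp3a59), Cyp2b9, Cyp2c37, Cyp2c38, Cyp2c40, Cyp2c54, Cyp2c55, Cyp2c65, Cyp2c66, Cyp2c67, Cyp2j6, Cyp2j8, Cyp4a14 and Cyp1a1. The CpG-richer ends of the Cyp3 genes held 1 to 9 CpGs and had too few CpGs with a read or too few read counts to be measured. Cyp3 bodies were measured in 7 of 7 genes and lay between 60.8% in Cyp3a25 and 69.9% in Cyp3a13, which stands apart from the array.

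Because annotated ends missed dense regions in Cyp26b1, Cyp2u1 and Cyp1a1, the CpG-densest 1 kb in or at each gene was also read, a measure chosen after the data had been seen. Its median was 11.98% in developmental and sterol members (8 genes), 38.9% in other families (14 genes) and 71.6% in clustered families (70 genes), beside 7.84% in 19460 autosomal genes. It was low in 5 of 8, 7 of 14 and 6 of 70 members, beside 65.3% of all genes, and high in 1, 6 and 36 members, beside 18.5%. With at least 40 CpGs in that window, 7 developmental and sterol members had a median of 10.7% and 13 clustered members had 38.1%, beside 5.58% in 13367 genes. Some clustered windows of that density were barely read. In Cyp2c39, whose span holds Cyp2c38, reads covered 13 of 59 CpGs at 86.7%, and in Cyp4a32 they covered 16 of 54 at 93.8%. Cyp3a44, with 41 of 41 CpGs read, was at 76.4% (69.8% to 82.2%).

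**Figure D4:**
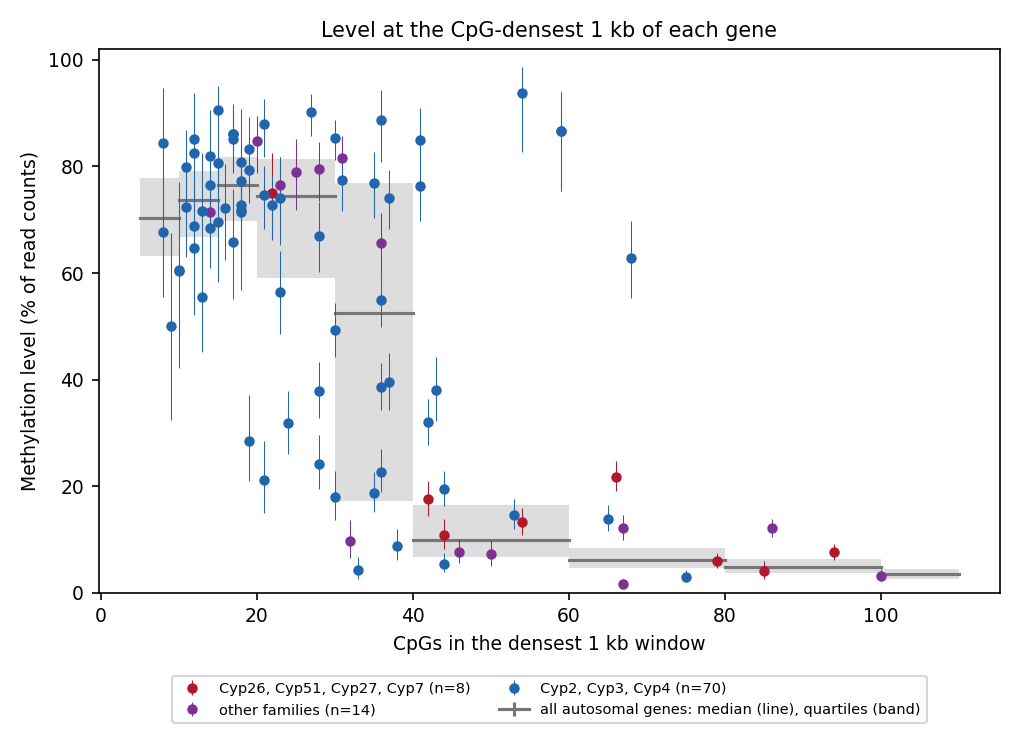
Methylation level (percent of read counts, bars are exact 95% intervals) of the CpG-densest 1 kb of each P450 gene against its CpG number, over the quartiles and median of all autosomal protein-coding genes with similar CpG numbers. Developmental and sterol members lay between 4.01% and 75%, and the points near the top right are clustered genes of which 2 share 1 window.

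The Cyp4f genes encode fatty acid and leukotriene hydroxylases. In the 8 with a strand, the CpG-densest window of the last 2500 bp was less methylated, and held more CpGs, than that of the first 2500 bp. In each gene of at least 5000 bp with a given strand, the CpG-densest 500 bp of the last 2500 bp was compared with that of the first 2500 bp. This measure was also chosen after the values had been seen. In the last 2500 bp the levels were 9.52% in Cyp4f16, 10.2% in Cyp4f13, 11.4% in Cyp4f15, 11.5% in Cyp4f39, 11.6% in Cyp4f18, 12.2% in Cyp4f37, 24.4% in Cyp4f14 and 25.6% in Cyp4f40. In the first 2500 bp they were 61.7%, 46.5%, 81.0%, 32.9%, 76.0%, 82.9%, 65.6% and 82.6% in the same order of genes. The medians over all autosomal genes ran the other way, 82.5% in the last 2500 bp and 6.42% in the first. The last part had its interval wholly under 40% in 8 of 8 Cyp4f genes and in 1 of 35 other P450 genes, Cyp26c1, beside 5.16% of 11201 autosomal genes. This bound is looser than the 20% used for low calls. By the 20% bound the windows of Cyp4f14 (20.01% to 29.17%) and Cyp4f40 (20.43% to 31.25%) were not low.

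The windows of the last 2500 bp held a median of 26.5 CpGs in Cyp4f genes, beside 12 over all genes. Those of the first 2500 bp held a median of 7 in Cyp4f genes, beside 35 over all genes. Whether the 2 parts differed in level beyond CpG number was not tested. Cyp4f18 lies alone on chromosome 8 and the other 7 lie in the array on chromosome 17, so the pattern was not limited to the array. The genes are paralogs that share sequence and are not independent of each other. The 1 kb windows at the 3′ ends themselves varied. They were low in Cyp4f13 (12.9%), Cyp4f15 (7.51%) and Cyp4f18 (11.5%), intermediate in Cyp4f40 (39.02%) and high in Cyp4f16 (67.6%), Cyp4f37 (71.8%) and Cyp4f39 (71.8%). That of Cyp4f14 was not measured. Cyp4f17, for which no strand was used, was at 3.44% (1.66% to 6.23%) near its lower-coordinate end and at 17.0% (12.6% to 22.1%) near its higher end.

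**Figure D5:**
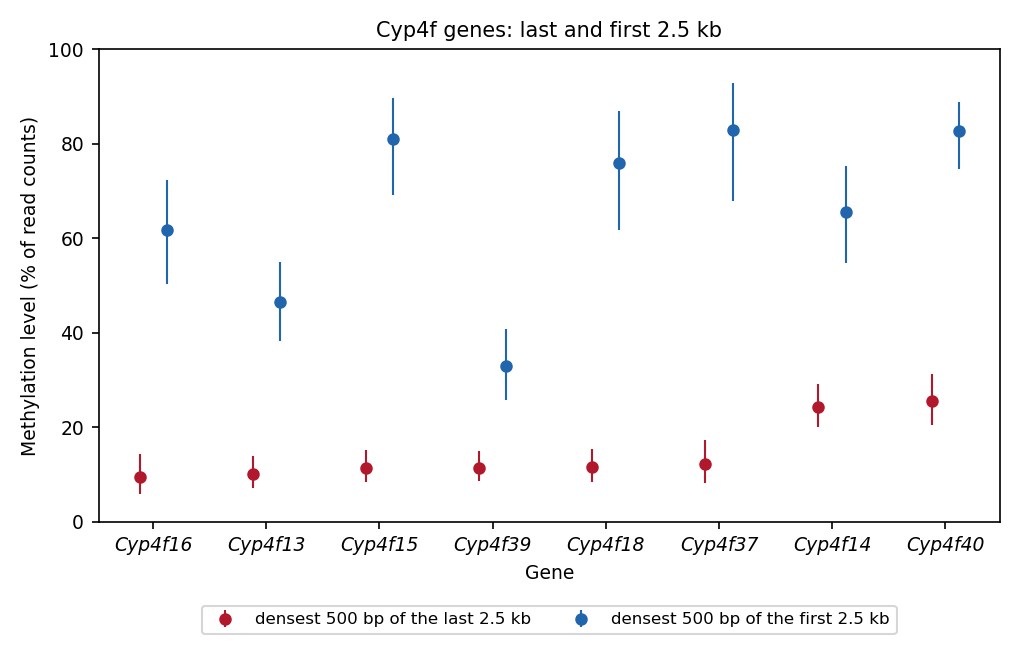
Methylation level (percent of read counts, bars are exact 95% intervals) of the CpG-densest 500 bp in the last (red) and first (blue) 2.5 kb of the 8 Cyp4f genes with a strand, ordered by the last part. The last parts lay between 9.52% and 25.6%, the first parts between 32.9% and 82.9%.

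Gene bodies were mostly methylated in clustered families and varied widely in developmental and sterol members. Bodies were measured where at least 10 CpGs had a read and at least 50 read counts were present. The median was 53.9% in developmental and sterol members (8 genes), 71.3% in other families (13 genes) and 70.6% in clustered families (71 genes), beside 75.8% in 17302 autosomal genes. Developmental and sterol minus clustered was -16.7 points, but only -0.981 points where 2000 bp were left out at each end. In that setting 1 of the 8 members was no longer measured, Cyp26a1, the lowest body, whose span ends 3.73 kb after its start. The median of 53.9% fell in a gap between Cyp27b1 (37.7%) and Cyp7b1 (70.1%), so the loss of a low member alone moves it across that gap. The interval lay wholly under 60% in 4 of 8 developmental and sterol members (Cyp26a1, Cyp26b1, Cyp26c1 and Cyp27b1), 3 of 13 other members (Cyp1a1, Cyp1b1 and Cyp24a1) and 3 of 71 clustered members (Cyp2a5, Cyp2u1 and Cyp4f14). The share among all autosomal genes was 13.8%.

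Within clustered families, arrays differed in body level. An array was a run of at least 3 genes of a family with gaps of at most 500 kb, and 63 of 71 clustered members lay in 7 arrays. Bodies of the Cyp2d array on chromosome 15 had a median of 83.9% and reached 87.6% in Cyp2d9, the highest of any member. Bodies of the Cyp3a array on chromosome 5 had a median of 63.9% and none was above 65.7%. The Cyp2a and Cyp2b array on chromosome 7 had a median of 76.1%, the Cyp4a array on chromosome 4 had 73.4%, and Cyp2c on chromosome 19, Cyp2j on chromosome 4 and Cyp4f on chromosome 17 had 70.1%, 70.1% and 70.0%. These 2 arrays, Cyp2d and Cyp3a, had the highest and lowest body medians of the 7. Bodies of the 8 Cyp2d genes (75.85% to 87.6%) did not overlap in level with those of the 6 arrayed Cyp3a genes (60.8% to 65.7%). Over all autosomal bodies the quartiles were 67.35% and 82.27%. Across the 71 clustered bodies, level and CpGs per kb had a Spearman rho of 0.357, given as a description, since neighbors share sequence and depth. In Cyp4f the highest body was that of Cyp4f16 at 78.2%, and the lowest was that of Cyp4f14 at 53.8%.

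Lists of genes that work with P450 enzymes differed in calls and in CpG number. Ends were mostly low in cholesterol synthesis and mostly high among bile acid genes. The list of 15 retinoic acid genes, which supply, bind and sense the substrate of Cyp26, had 11 low and 2 high CpG-richer ends and a median of 10.8%. Aldh1a2, which makes retinoic acid in the embryo, was at 4.81%, and the receptor gene Rarb was high at that end (82.5%) but at 9.34% at its start. Of 16 cholesterol synthesis genes, which act before and after Cyp51, 14 were low and 2 high, with a median of 5.96%. Of 6 electron donors, 4 were low and 1 high. Por, the reductase of microsomal P450 enzymes, was at 28.3% at the end with more CpGs within its outermost annotation and at 3.70% at its start. Of 13 regulators, 5 were low and 5 high. The aryl hydrocarbon receptor gene Ahr was at 2.68%, whereas Hnf4a, a liver factor, was at 74.8%. Of 7 measured bile acid genes, 1 was low and 6 were high, with a median of 82.3%. The shares among all autosomal genes were those given above, 59.6% low and 19.0% high. At 11 of 15 retinoic acid genes and 4 of 6 electron donors, low ends were not far from the 59.6%. CpG-richer ends held a median of 59.5 CpGs in cholesterol synthesis, 54 in retinoic acid genes and 42.5 in electron donors. Regulators had 21 and bile acid genes 12. Whether the lists differed beyond CpG number was not tested.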

How the data were processed

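The values deposited by the authors are read counts, methylated in one column and unmethylated in the next, per CpG and strand, in 1 table without sample columns. It was read as a pool of both samples. The way they were combined and any removal of duplicate reads were not given in the sources used here. Per the submitters' processing notes, the build was mm10 and the tools were cutadapt 1.3, Bismark 0.12.5 and Bowtie2 2.1.0. Duplicates and filters could change depth and narrow the intervals.

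Genes and starts came from RefSeq tables of GRCm38.p6. CpG positions matched the count table in 31396 of 31396 autosomal promoter sequences. The table of genes gives ends without a strand, so starts exist only for the 73 matched members, and the outermost was used. Members and lists were chosen with earlier results of these data known. The 6 symbols with 2 letters or a letter suffix, such as Cyp2ab1, were left out by the symbol rule.

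Counts were analysed with Python 3.11.15, numpy 2.4.6, pandas 2.3.3 and scipy 1.17.1. Levels and intervals of CpG-richer ends were tested on simulated counts drawn independently for each CpG. Other measures were not tested in that way. Named by rule were every developmental and sterol member, members with at least 40 CpGs at an end, the 2 highest and 2 lowest CpG-richer ends and the highest and lowest bodies per family group, members with opposite calls and members with no measured end. Cyp2u1, Cyp2j and Cyp4f genes and the other examples were named after their values were seen. Alternatives were other windows, depth minimums, thresholds, single strands, CpG fractions and wider symbol rules.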

Additional observations from a re-analysis of the deposited data

How the results depend on the processing

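Of 151 alternative values for 13 results, 26 moved beyond counting error or beyond 1.5 times the count. Only group differences could reverse, with 14 alternatives at the CpG-richer end, 12 at the start and 9 in bodies, and none did. Arrays alone and the wider symbol rule kept the same developmental and sterol members, so their values could not move there. Counting overlapping windows once removed no measured gene. For a median, counting error was taken as the interval of the middle gene, or the mean bounds of the 2 middle genes. That interval is not the error of the median. Large shifts within it, such as the start difference of -28.4 points below, were not counted as moved. The median at the CpG-richer end of developmental and sterol members, 20.7%, was 12.2% with at least 50 read counts, 12.4% from plus strand reads, 12% in the CpG-densest 1 kb, 40% in CpG-poor windows alone (3 genes) and 68.3% at the end with fewer CpGs, where the difference from clustered families was -3.52 points. Their start median was 53.9% in CpG-poor windows alone (2 genes), and the start difference was -20.0 points. That difference was -28.4 points with 250 bp on either side, where the clustered median was 57.1% (19 genes). Low windows numbered 0 in both groups in CpG-poor windows and at the end with fewer CpGs, and 5 in clustered families with 1000 bp on either side or in arrays alone. Median CpG numbers, 22 in developmental and sterol members and 8 in clustered families, were 11.5 and 4 with 250 bp on either side, 51 and 16 with 1000 bp, 9 and 5 at the end with fewer CpGs, and 60 and 21 in the CpG-densest 1 kb. With 2000 bp left out at each end, the body median of developmental and sterol members was 69.9% rather than 53.9% (difference -0.981 points). Only 7 genes were measured in that setting, without Cyp26a1. With nothing left out the median was 43.7% (difference -26 points). The cause of these shifts was not tested. The CpG-densest 1 kb and the arrays alone were chosen after seeing the data.

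Reads of the 2 strands differed by a median of 4.94 points at the CpG-richer end of 54 members and by 3.34 points in bodies. Ends of the Cyp3 genes and of most Cyp2c genes had too few CpGs with a read or too few read counts to be measured. No paired analysis was possible because the table has no column per sample.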

Other observations

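Cyp2a5, which encodes an enzyme of nicotine and coumarin metabolism, had the lowest body of the Cyp2 family, at 41.9% (37.1% to 46.7%), whereas its near-identical neighbor Cyp2a4 was at 77.6%. The 500 bp tile beginning 1000 bp after the start was at 28.0% (22.7% to 33.8%) in Cyp2a5 over 23 CpGs, against 76.9% (68.3% to 84.0%) in Cyp2a4 over 21 CpGs. The next tile was at 47.5% (31.5% to 63.9%) in Cyp2a5 and at 76.3% (65.2% to 85.3%) in Cyp2a4. The tile before them was at 84.1% (73.3% to 91.8%) in Cyp2a5 and at 77.0% (65.8% to 86.0%) in Cyp2a4. Depth moved with the tile at 28.0%, with 11.7 reads per CpG in Cyp2a5 and 5.76 in Cyp2a4. Whether reads from a copy elsewhere took part in this difference was not tested.

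In Cyp26b1, beyond the wide low stretch, 3 adjacent 500 bp tiles centered 18.6 to 19.6 kb after the start were intermediate, at 41.6% (34.0% to 49.5%), 37.8% (31.2% to 44.8%) and 27.1% (20.9% to 34.0%), with 15 CpGs each. The tiles on either side were at 83.9% and 72.8%. These tiles were picked after their values were seen.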
